A study of Mus musculus with 24 samples.

Results

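T cell coreceptors and surface markers were followed in the pancreatic islets of NOD mice, which become diabetic through autoimmunity, by way of 7 genes: Cd4, Cd8a, Cd8b1, Cd2, Cd5, Cd6 and Ms4a4b. The genes were chosen by name, with earlier results of these data known. Counts of members set beside those of all probes are therefore descriptive. Every noncontrol probe of the array that carries one of these names, or a RefSeq transcript of that gene, was taken. This gave 15 probes of the 41174 on the array and 7 of 28867 named genes. Islets were isolated with collagenase from single female NOD/LtJ mice aged 10 days, 4 weeks, 12 weeks or 20 weeks, 6 mice at each age. Their RNA was labelled with Cy5 and set on the same array against Cy3-labelled islet RNA pooled from 6 female NOD.B10Sn-H2b/J mice of the same age. These mice share the NOD background and carry the H2b haplotype of the major histocompatibility complex (MHC) in place of NOD's own. The labels name no drug or other agent given to any mouse. The values are log2(NOD/pool), above 0 where the NOD islets had more of the transcript, and errors are SDs over the 6 mice of an age unless a standard error is named.

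CD4 and CD8 are the coreceptors of the T cell receptor: CD4 binds MHC class II, CD8 binds MHC class I, and both bring the kinase Lck to the receptor. CD8 is a dimer of the chains encoded by Cd8a and Cd8b1. CD2 is an adhesion and costimulatory receptor that binds CD48 in the mouse, and CD5 and CD6 are related scavenger receptor proteins that tune T cell receptor signalling, CD6 by way of its ligand ALCAM. Ms4a4b encodes a membrane-spanning protein of the MS4A family that T cells carry. In NOD mice, T cells enter the islets over the weeks before diabetes.

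The probes are DNA 60-mers, and 4 of them lie across an exon junction, so that on the genome each spans more than its own length. These 4 are shown because their full length is found in spliced RNA and not in the gene itself, together with the Cd4 probe and the third Cd8a probe, whose values turn out low. Positions are those of the files on mouse build mm9, and each sequence is written 5′ to 3′ as in the files. The Cd2 probe lies on the minus strand at chr3:101083802-101086981, with 3120 intron bases between its parts. The second Cd6 probe lies on the minus strand at chr19:10867422-10868678, with 1197 intron bases. The pair of Ms4a4b probes lies on the plus strand at chr19:11529252-11532335 and chr19:11532321-11533680, with 3024 and 1300 intron bases, and shares the 15 bases in capitals. The Cd4 probe lies on the minus strand at chr6:124817706-124817765, and the third Cd8a probe lies on the plus strand at chr6:71323885-71323944. No annotation of this build was used here, so exons are not numbered.
Cd2 A_51_P126067: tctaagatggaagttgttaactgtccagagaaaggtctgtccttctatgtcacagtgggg
Cd6 A_52_P294977: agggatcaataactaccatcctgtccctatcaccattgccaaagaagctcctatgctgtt
Ms4a4b A_51_P136289: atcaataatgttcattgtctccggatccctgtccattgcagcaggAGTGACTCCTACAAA
Ms4a4b A_51_P136288: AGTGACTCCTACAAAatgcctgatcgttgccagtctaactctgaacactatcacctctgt
Cd4 A_52_P383089: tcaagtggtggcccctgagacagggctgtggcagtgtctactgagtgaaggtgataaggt
Cd8a A_52_P150547: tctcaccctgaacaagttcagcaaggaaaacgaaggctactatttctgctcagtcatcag

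At 12 and 20 weeks most members were higher in NOD islets than in the pool; Cd4 was not called at any age with this background correction, and at 10 days and 4 weeks the 1 member called was Cd6. Of the 15 probes, 13 were bright enough to be tested. A probe was called when limma's adjusted p was under 0.05 and its ratio differed at least 2-fold. At 10 days 0 of 13 member probes were called, while 1.41% of all probes were called higher and 1.84% lower. At 4 weeks 1 was called higher, against 1.57% of all probes, and it was a Cd6 probe. At 12 weeks 7 were called higher, of 4 genes (Cd8a, Cd5, Cd6 and Ms4a4b), against 1.7% of all probes. At 20 weeks 10 were called higher, of 6 genes, with Cd8b1 and Cd2 added, against 3.23% of all probes. No member probe was called lower at any age; among all probes 0.718%, 1.15% and 0.98% were at 4, 12 and 20 weeks. The 13 probes had a median ratio of 0.24 in 10 day mice, -0.04 in 4 week mice, 1.04 in 12 week mice and 1.92 in 20 week mice, while the median of all 25910 tested probes was 0.03, 0.00, 0.03 and 0.00. Because islets were measured whole, more T cells and more RNA per T cell cannot be told apart.

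The share of probes well above background ran from 43.2% to 65.4% over the NOD samples, and from 40.2% to 61.1% over the pool's. The 12 week pool was the dimmest, at 40.2% to 44.4%, and among NOD mice 20 week replicate 5 was, at 43.2%. The dyes were never swapped, so a dye effect on a probe stays in a ratio at 1 age and cancels when ages are compared. The labels name 1 pool per age, taken here as 1 control sample, so a test against 0 leaves out the spread among controls, and any change between the pools of 2 ages is part of the contrast between those ages. Each slide held 4 arrays. The 10 day and 4 week mice shared 1 slide, as did the 12 and 20 week mice; no slide held both 4 and 12 week mice, so for that step slide and age cannot be told apart. Across all probes, 9 pairs of arrays correlated below -0.3 (lowest -0.52), every one of them between ages, while the lowest correlation within an age was 0.19. The direction follows the dyes that the labels state. Of 9 islet endocrine genes on the array, such as Ins1, Gcg and Sst, 9 were above background on all 6 NOD arrays at 10 days, 4 weeks and 12 weeks and 8 were at 20 weeks.

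**Figure D1:**
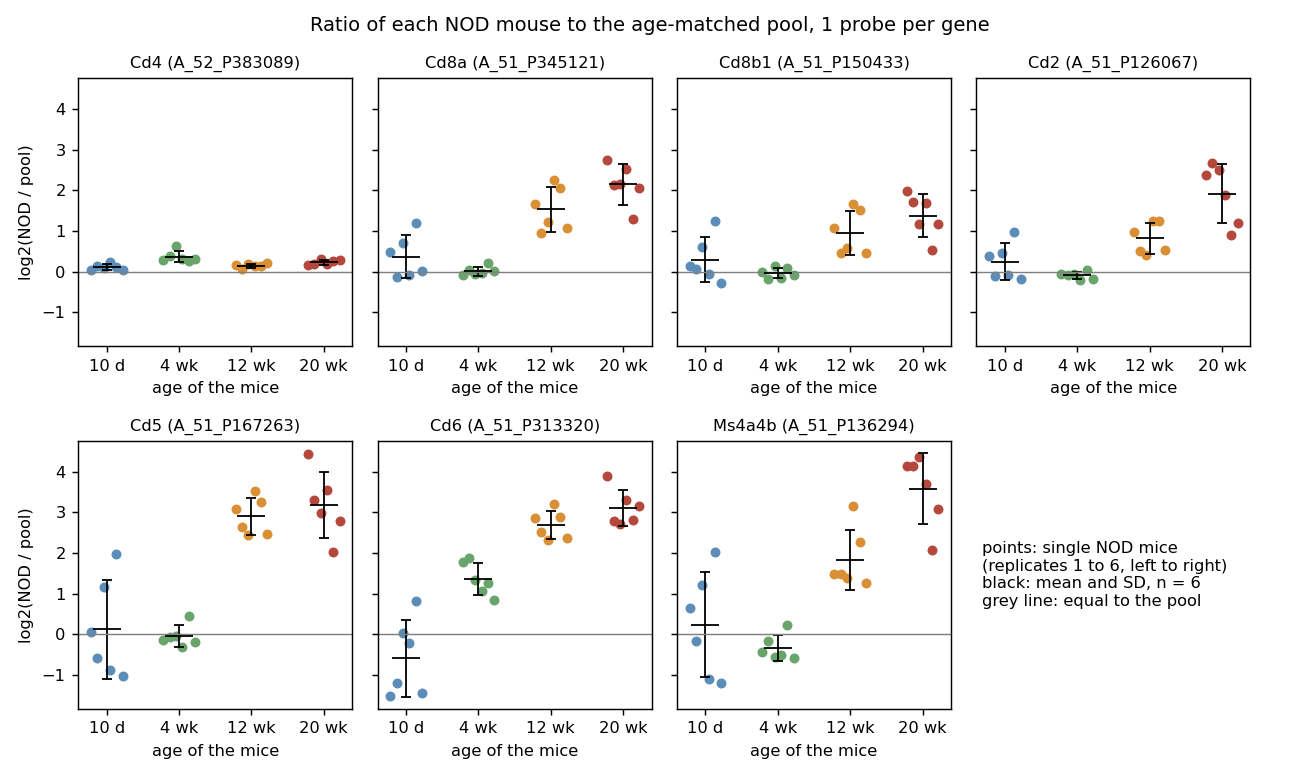
log2(NOD/pool) of each NOD mouse for the brightest probe of each of the 7 genes, by age, with the mean and SD of 6 mice in black. Cd4 stays between 0.04 and 0.62 at every age; the other 6 genes lie above 0 in all mice at 12 and 20 weeks, and the 10 day mice are spread to both sides of 0.

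Cd4 gave the smallest ratios of the 7 genes at 20 weeks. Its tested probe was above 0 in all 24 mice and was not called at any age with an offset of 50; without that offset it was, as given in the next paragraph. The 6 mice ranged from 0.04 to 0.24 at 10 days (median 0.10), from 0.27 to 0.62 at 4 weeks (median 0.31), from 0.06 to 0.20 at 12 weeks (median 0.15) and from 0.16 to 0.30 at 20 weeks (median 0.23). The 4 week mice stood highest and did not overlap the mice of 10 days or of 12 weeks. The mean was 0.36 ± 0.13 (SD, n = 6) at 4 weeks, with an adjusted p of 3.08e-07, and 0.23 ± 0.06 (n = 6) at 20 weeks, with an adjusted p of 4.53e-05. The 4 week mean exceeded that of 10 days by 0.25 (SE 0.06, adjusted p = 0.000845), and the 12 week mean lay below that of 4 weeks (-0.22, SE 0.06, adjusted p = 0.00441).

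The Cd4 probe was dim. It was well above background on 4 of 6 NOD arrays at 10 days and on 6 of 6 at later ages, and in the pool on 0, 3, 0 and 6 arrays at the 4 ages, so that the ratios at 10 days and 12 weeks are lower bounds, of at least 1.02-fold and 1.11-fold. It was printed 10 times on each array and the 10 spots were averaged. The second Cd4 probe passed the background flag on 4 of the 24 arrays and was not tested. Its means ran from -0.07 at 4 weeks to 0.17 at 12 weeks. The correction for background adds 50 units to each signal, which draws the ratios of dim probes toward 0. By the scanner software's own log ratio, which adds no such offset, the Cd4 probe was called higher at all 4 ages, at 1.21, 1.56, 1.24 and 1.15, and none of the 4 differences between ages was called. In the authors' deposited table it was called at 4, 12 and 20 weeks, at 1.56, 1.01 and 1.15. The ratio of the tested Cd4 probe was thus above 0 at each age under both treatments of background, at different sizes. The dyes were never swapped, so a dye effect on this probe stays in its ratio at each age, and its part was not tested.

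On its probe with the strongest signal, Cd8a had a higher ratio at 12 weeks than at 4 weeks, and the mice did not overlap. The difference from 12 to 20 weeks was not called on that probe. That probe gave -0.12 to 1.19 at 10 days (median 0.25), -0.08 to 0.20 at 4 weeks (median -0.01), 0.94 to 2.26 at 12 weeks (median 1.43) and 1.28 to 2.74 at 20 weeks (median 2.14). At the 2 older ages every mouse was above 0, with replicates 4 and 5 highest at 12 weeks and replicate 5 lowest at 20 weeks. The mean was 1.53 ± 0.55 (n = 6) at 12 weeks, a 2.89-fold excess with an adjusted p of 5.88e-07. At 20 weeks it was 2.15 ± 0.50 (n = 6), a 4.43-fold excess with an adjusted p of 3.43e-09. At 10 days and 4 weeks the means were 0.37 ± 0.53 and 0.01 ± 0.11, and neither was called.

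The 3 Cd8a probes kept the same order of ages at 12 and 20 weeks with different sizes. The second, which is printed 10 times per array, gave 1.04 ± 0.50 at 12 weeks and 1.62 ± 0.62 at 20 weeks, and both were called. At 12 weeks its pool signal was not well above background on any array, so its ratio there is a bound, at least 2.05-fold (adjusted p = 8.94e-05). Bounds of this kind set the NOD mean against the higher of the pool's own signal and the lowest signal above background on each array. Without 12 week replicate 4 its mean fell to 0.88, and without replicate 5 to 0.96, both under the 2-fold floor. The third probe, whose sequence is given above, was not called: it gave 0.31 ± 0.22 at 12 weeks and 0.66 ± 0.42 at 20 weeks. Its pool signal was above background on 1 of 24 arrays, and at 20 weeks its bound was at least 1.58-fold, with 5 of 6 NOD mice above background. With an offset of 10 in place of 50, this probe was called at 20 weeks, at 1.32, and by the scanner log ratio it read 3.72.

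Cd8b1, the second chain of CD8, had 12 and 20 week means below those of the first pair of Cd8a probes and above those of the third. Its mice ranged from -0.28 to 1.26 at 10 days (median 0.11), from -0.19 to 0.13 at 4 weeks (median -0.05), from 0.46 to 1.66 at 12 weeks (median 0.82) and from 0.53 to 1.99 at 20 weeks (median 1.43). The 4 week mice lay around 0, the 12 week mice lay clear of them, and the mice of 12 and 20 weeks overlapped. At 20 weeks the mean was 1.38 ± 0.53 (n = 6), 2.59-fold, with an adjusted p of 2.02e-06. At 12 weeks it was 0.96 ± 0.54 (n = 6), with an adjusted p of 0.000271, just under the 2-fold floor; the pool was below background on all 6 arrays, and the bound is at least 1.94-fold. With an offset of 10 the 12 week mean was 1.67 and was called. Leaving out 12 week replicate 2, 3 or 6 also brought it over the floor, at 1.06, 1.03 and 1.06.

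**Figure D2:**
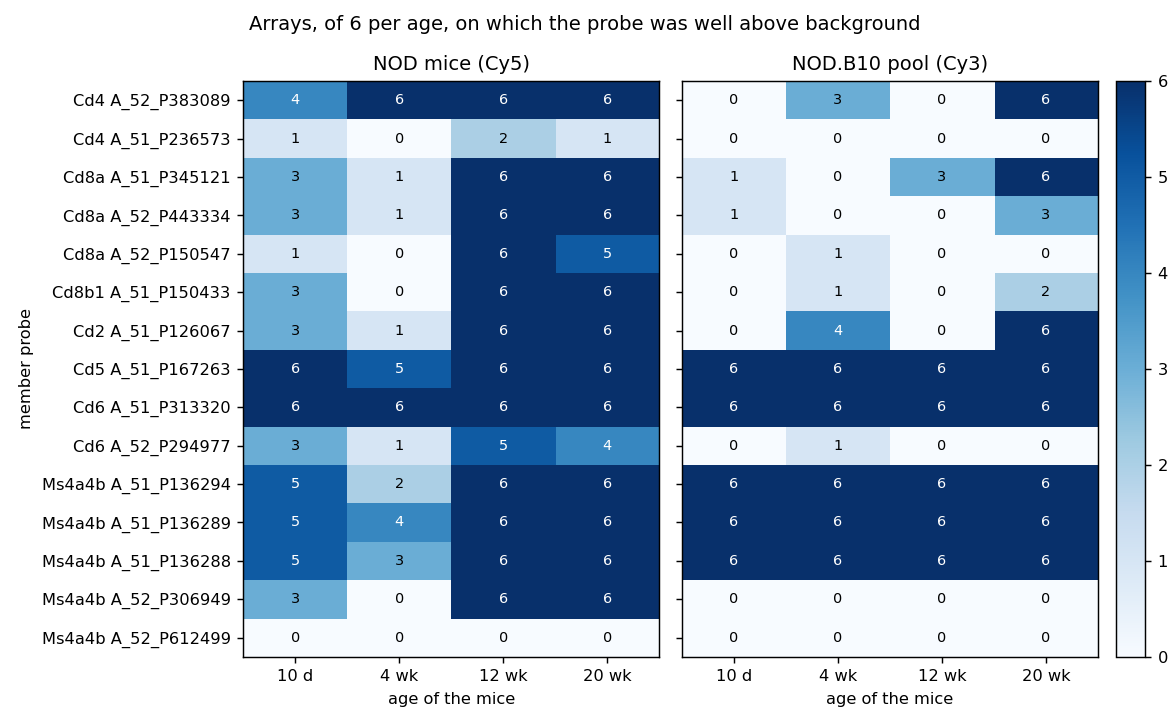
Number of arrays, of 6 per age, on which each of the 15 member probes was well above background, in the NOD channel (left) and the pool channel (right). Cd5, the first Cd6 probe and 3 Ms4a4b probes were above background in the pool on all 6 arrays at every age, while the Cd8b1 and Cd2 probes were so on 0 pool arrays at 12 weeks and on 6 NOD arrays.

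Cd2, like Cd8b1, was called at 20 weeks and not at 12 weeks. Its mice ranged from -0.18 to 0.98 at 10 days (median 0.16), from -0.20 to 0.04 at 4 weeks (median -0.07), from 0.40 to 1.25 at 12 weeks (median 0.76) and from 0.90 to 2.66 at 20 weeks (median 2.12). All 12 week mice lay above all 4 week mice, and 20 week replicates 5 and 6, at 0.90 and 1.18, lay within the 12 week range. The mean was 0.82 ± 0.39 (n = 6) at 12 weeks, with an adjusted p of 0.0012 but under the 2-fold floor, and the pool was below background on all 6 arrays (at least 1.76-fold). At 20 weeks it was 1.92 ± 0.73 (n = 6), 3.78-fold, with an adjusted p of 2.46e-08. With an offset of 10 the 12 week mean was 1.35 and was called. Cd48, the gene of the CD2 ligand, was called higher at 12 weeks (1.10 ± 0.44) and at 20 weeks (1.88 ± 0.70); its second probe, dimmer, gave 0.43 ± 0.26 and 0.90 ± 0.46.

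Cd5 was called higher at 12 and 20 weeks, and its probe was measured in both channels at those ages. The mice ranged from -1.01 to 1.97 at 10 days (median -0.26), from -0.30 to 0.46 at 4 weeks (median -0.10), from 2.44 to 3.53 at 12 weeks (median 2.86) and from 2.03 to 4.44 at 20 weeks (median 3.15). No mouse of 12 or 20 weeks lay as low as any mouse of 10 days or 4 weeks. The mean was 2.90 ± 0.45 (n = 6) at 12 weeks, 7.46-fold with an adjusted p of 1.19e-07. At 20 weeks it was 3.18 ± 0.81 (n = 6), 9.09-fold with an adjusted p of 1.87e-08. Cd72, whose protein has been described as a CD5 ligand and is carried by B cells, was called higher at both ages by both of its probes: 2.03 ± 0.34 and 1.80 ± 0.33 at 12 weeks, and 1.94 ± 0.63 and 1.80 ± 0.62 at 20 weeks.

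Cd6 was the 1 member called at 4 weeks. Its first probe ranged from -1.51 to 0.82 at 10 days (median -0.70), from 0.84 to 1.87 at 4 weeks (median 1.31), from 2.31 to 3.20 at 12 weeks (median 2.68) and from 2.70 to 3.89 at 20 weeks (median 2.99). The 4 week mice lay above all 10 day mice and below all 12 week mice, and the mice of 12 and 20 weeks overlapped. The mean was 1.36 ± 0.40 (n = 6) at 4 weeks, 2.57-fold with an adjusted p of 4.25e-05. It was 2.69 ± 0.35 at 12 weeks (6.44-fold, adjusted p = 7.76e-09) and 3.11 ± 0.45 at 20 weeks (8.62-fold, adjusted p = 6.29e-10). At 10 days the mean was -0.58 ± 0.95, not called, with replicates 1, 2 and 6 between -1.51 and -1.19. At 4 weeks, 9 of 10 acinar genes were also called higher, with list means of 0.98 to 1.72 over the mice, and the islet endocrine list lay between -1.43 and -0.40; their part in the Cd6 value was not tested.

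The second Cd6 probe did not follow the first. Its means were -0.01 ± 0.10 and 0.03 ± 0.09 in mice of 10 days and 4 weeks, and 0.08 ± 0.12 and 0.29 ± 0.09 in those of 12 and 20 weeks. Its pool signal was above background on 1 of 24 arrays and its NOD signal on 3, 1, 5 and 4 arrays at the 4 ages, so at 20 weeks it gives a bound, at least 1.23-fold (adjusted p = 1.30e-05). By the scanner log ratio it was called higher at 12 weeks (1.07) and 20 weeks (1.88) and read 0.60 at 4 weeks. Between the probes, the root mean square difference over the 24 arrays was 2.11 on the log2 scale, the widest among tested probes of 1 gene here. Alcam, the gene of the CD6 ligand, was not called at any age; its mean was 0.83 ± 0.20 at 4 weeks, and 0.28 ± 0.21 and 0.14 ± 0.38 at 12 and 20 weeks.

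Ms4a4b gave the highest ratio of the 7 genes at 20 weeks. Its brightest probe ranged from -1.18 to 2.02 at 10 days (median 0.24), from -0.59 to 0.23 at 4 weeks (median -0.47), from 1.25 to 3.15 at 12 weeks (median 1.49) and from 2.06 to 4.36 at 20 weeks (median 3.91). At 12 weeks replicates 4 and 5, at 3.15 and 2.26, stood above the other 4 mice, and at 20 weeks replicate 5, at 2.06, stood below the others. The mean was 1.84 ± 0.73 (n = 6) at 12 weeks, 3.57-fold with an adjusted p of 0.000174. At 20 weeks it was 3.58 ± 0.87 (n = 6), 11.9-fold with an adjusted p of 2.09e-08. At 4 weeks the mean of -0.34 ± 0.32 was not called. By the scanner log ratio, and in the authors' deposited table, this probe was called lower at 4 weeks, at -1.95 in each.

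The junction probes of Ms4a4b that share 15 bases agreed closely with each other, with a root mean square difference of 0.21 over the 24 arrays. They gave 1.63 ± 0.71 and 1.63 ± 0.64 at 12 weeks and 3.02 ± 0.87 and 2.77 ± 0.88 at 20 weeks, and all 4 values were called. The probe A_52_P306949 was not above background in the pool on any of the 24 arrays. It gave 0.49 ± 0.29 at 12 weeks, not called (at least 1.39-fold, adjusted p = 0.0106), and 1.22 ± 0.49 at 20 weeks, called (at least 2.25-fold, adjusted p = 3.68e-07). The last of the 5 probes was not above background on any array in either channel and was not tested. Probes of 1 gene are not separate samples, so these values describe the probes and add no replicates.

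**Figure D3:**
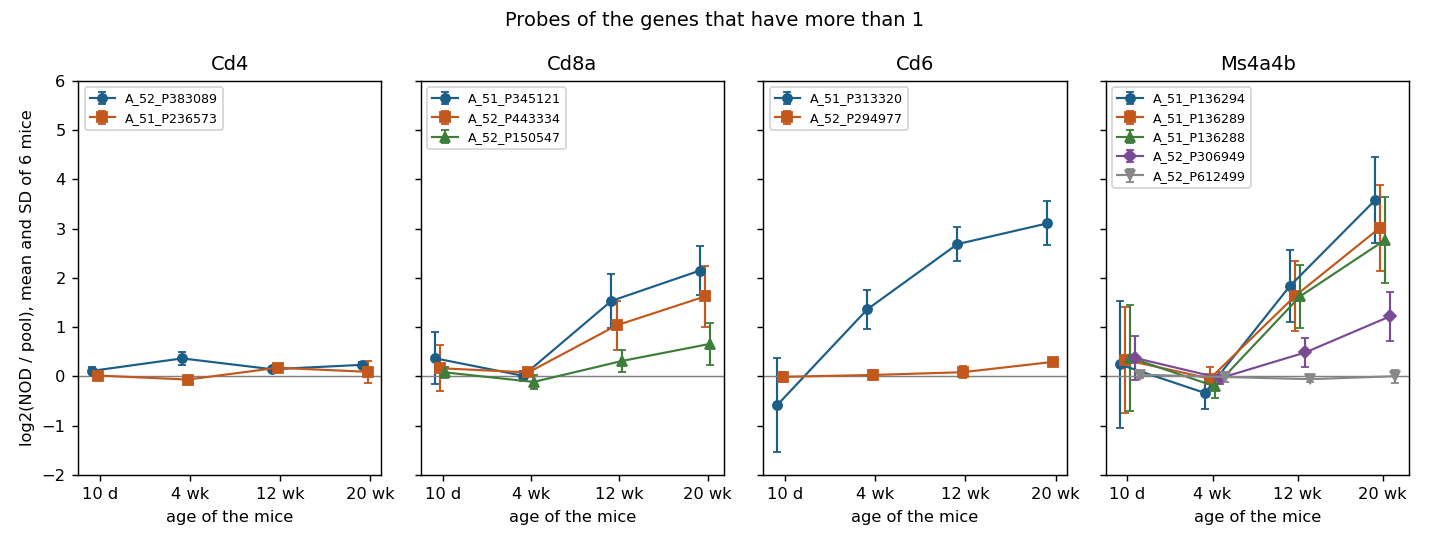
Mean log2(NOD/pool) and SD of 6 mice at each age for every probe of the 4 genes that have more than 1. The 3 bright Ms4a4b probes run together to between 2.77 and 3.58 at 20 weeks, while the probes of Cd6 part at 4 weeks (1.36 against 0.03), and the dim Ms4a4b probe A_52_P306949 reaches 1.22.

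At 10 days the mice were spread widely. Replicate 5 was highest on 12 of the 13 tested probes, replicate 6 was lowest on 9 and replicate 1 on 3. In replicates 1 to 6 the brightest Ms4a4b probe read 0.66, -0.17, 1.23, -1.10, 2.02 and -1.18, and Cd5 read 0.06, -0.59, 1.17, -0.88, 1.97 and -1.01. For both genes replicates 1, 3 and 5 lay above 0 and the others below 0, on either side of a mean near 0. Cd6 differed from this, at -1.51, -1.19, 0.04, -0.20, 0.82 and -1.44, with replicate 1 lowest, and Cd4 was above 0 in all 6 mice.

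Other gene lists were spread over the same mice, each given in the order of replicates 1 to 6. The mean of 16 other T cell surface genes was 0.06, -0.48, 0.29, -0.49, 0.65 and -0.59. The mean of 10 lymph node stroma and high endothelial venule genes was -0.19, -0.87, 0.89, -1.16, 1.05 and -0.92; within that list Ccl19, a chemokine of lymphoid stroma, had an SD of 2.34 and Glycam1, an endothelial ligand of L-selectin, one of 1.89. Replicates 3 and 5 were the highest on both lists. The B cell list read -0.05, -0.64, -0.15, -0.75, 0.13 and -0.89, and the macrophage list 0.32, -0.71, 0.11, -0.79, 0.28 and -0.67. The islet endocrine list read 2.11, 1.04, 1.92, 0.81, 2.15 and 2.06, so replicates 5 and 6, far apart on the members, were alike there. Replicate 5 also had the highest median NOD signal over background of all 24 arrays, at 77.7 units. The part of lymphoid tissue and of signal strength in the 10 day spread was not tested.

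At 20 weeks replicate 5 was lowest on 11 of the 13 probes, and replicate 1 was highest on 8. Replicate 5 was also the dimmest NOD sample, with an islet endocrine mean of -2.89 against -1.20 to -0.45 in the other 5 mice, and an acinar mean of 2.05. Without the dimmest 2 samples, replicates 5 and 6, 10 member probes were still called at 20 weeks. At 12 weeks replicate 4 was highest on 11 of 13 probes.

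The step from 4 to 12 weeks was the first at which several members differed together. Of the 13 probes, 6 were called higher at 12 weeks than at 4 weeks, against 2.41% of all probes, and they belong to Cd8a, Cd5, Cd6 and Ms4a4b. The difference was 2.94 for Cd5 (SE 0.42, adjusted p = 3.14e-05), 1.52 for the first Cd8a probe (SE 0.25, adjusted p = 0.000117) and 1.32 for the first Cd6 probe (SE 0.32, adjusted p = 0.00288). For the 3 bright Ms4a4b probes it was 2.17, 1.68 and 1.83, with adjusted p-values of 0.00136, 0.00436 and 0.00197. Cd8b1 and Cd2 differed by 0.99 and 0.91 (adjusted p = 0.00481 and 0.00872), under the floor, and both were called with an offset of 10, at 1.77 and 1.55. From 10 days to 4 weeks 1 of 13 probes was called, against 4.13% of all probes called higher: the first Cd6 probe, at 1.94 (SE 0.32, adjusted p = 4.03e-05). The log2 signal of this probe was 8.76 at 10 days and 8.89 at 4 weeks in NOD islets, and 9.34 and 7.53 in the pool. The part of the pools in this difference was not tested. On the slide that held both ages the difference was 2.14, between 2 mice and 2, again set against the pools of those ages. Under median centring of each array, without loess, the difference was 0.87 and was not called (adjusted p = 0.08).

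From 12 to 20 weeks 4 of 13 probes were called higher, against 1.66% of all probes, and they belong to Cd2 and Ms4a4b. Cd2 differed by 1.10 (SE 0.26, adjusted p = 0.00362); since its 12 week ratio is a lower bound, this difference is an upper bound. The 3 bright Ms4a4b probes differed by 1.74, 1.39 and 1.15, with SEs of 0.48, 0.43 and 0.42 and adjusted p-values of 0.00991, 0.0206 and 0.0484. The last of these, probe A_51_P136288, was called in 12 of 35 alternative settings, and not with the replicate number as a block (adjusted p = 0.0671), without the filter on dim probes (adjusted p = 0.071) or without any one of most mice. Cd5, Cd6 and Cd8a differed by 0.29, 0.42 and 0.62 on their brightest probes, with adjusted p-values of 0.667, 0.36 and 0.0741. The mice of the 2 ages overlapped for each called probe. The log2 signal of each called probe differed more in the pool than in NOD islets. From 12 to 20 weeks Cd2 went from 7.90 to 8.02 in NOD islets and from 7.08 to 6.11 in the pool. The 3 bright Ms4a4b probes went from 9.40, 9.08 and 9.12 to 9.75, 9.15 and 8.97 in NOD islets. In the pool they went from 7.56, 7.45 and 7.49 to 6.17, 6.13 and 6.20. The part of the pools in this step was not tested. On the slide that held both ages, with 2 mice of each, the difference was 1.63 for Cd2 and 2.38, 2.35 and 1.79 for the Ms4a4b probes. With slide as a fixed block in limma, which gives these same differences, Cd2 was still called and the Ms4a4b probes were not (adjusted p = 0.116, 0.0754 and 0.176).

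This last step rests on the scaling. Under median centring without loess the median of all probes itself moved by -0.59 between 12 and 20 weeks, and by -0.21 in the scanner log ratio, against -0.02 with loess. Under median centring no member probe was called higher, with Cd2 at 0.42 and the Ms4a4b probes at 0.57, 0.30 and 0.09, and the first Cd6 probe was called lower, at -1.14 (adjusted p = 0.0249). By the scanner log ratio 1 probe was called, the dim Ms4a4b probe A_52_P306949 at 1.89. Leaving out 12 week replicate 6, or 20 week replicate 1, 2 or 3, brought the count from 4 to 2 each time. By contrast, the 7 probes called at 12 weeks and the 10 called at 20 weeks were each called higher as well with an offset of 10, under median centring and by the scanner log ratio. At 12 weeks median centring put the median of all probes at 0.39, and 99.3% of its called probes were higher. A higher call there thus tells little about the members. At 20 weeks that median was -0.16, and 26% of called probes were higher. For 12 minus 4 weeks it was 0.56, with 99.7% of called probes higher.

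**Figure D4:**
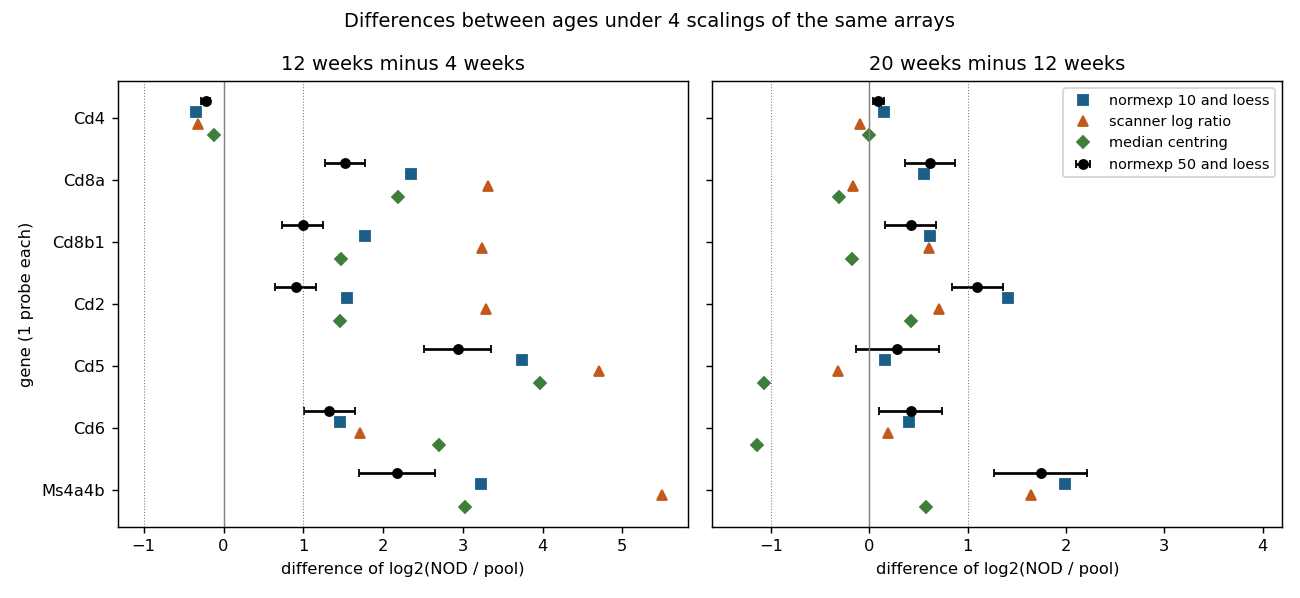
Difference in mean log2(NOD/pool) between ages for the brightest probe of each gene under 4 scalings of the same 24 arrays; bars are the standard errors of the model, dotted lines mark 2-fold. From 4 to 12 weeks 6 of the 7 genes lie right of 0 under every scaling. Median centring put the median of all probes itself at 0.56 in that step. From 12 to 20 weeks the points of Cd4, Cd8a, Cd8b1, Cd5 and Cd6 fall on both sides of 0, and Ms4a4b runs from 0.57 to 1.99.

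Over the whole course, 9 of 13 probes, of 6 genes, were called higher at 20 weeks than at 10 days, against 6.28% of all probes. The difference was 3.69 for Cd6 (SE 0.32, adjusted p = 6.41e-09), 3.34 for Ms4a4b (SE 0.48, adjusted p = 3.90e-06) and 3.06 for Cd5 (SE 0.42, adjusted p = 2.38e-06) on their brightest probes. It was 1.78 and 1.46 for the first pair of Cd8a probes, 1.67 for Cd2 and 1.08 for Cd8b1. Among the 9 called probes, the mice of the 2 ages did not overlap for Cd5, the first Cd6 probe, the brightest Ms4a4b probe and the first Cd8a probe. They overlapped for Cd2, Cd8b1, the second Cd8a probe and the pair of Ms4a4b junction probes. A lack of overlap was not particular to the members. For the islet endocrine genes Ins1, Gcg and Sst, called lower in this contrast, the mice did not overlap either. The share of all probes without overlap is not given here. Cd8b1 fell under the floor without 10 day replicate 6 (0.97) or 20 week replicate 1 (0.96), and under median centring (0.90).

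The genes that carry the coreceptor signal showed the same ages. Of 16 tested signalling partners, 0 were called at 10 days and 4 weeks, 5 were called higher at 12 weeks and 8 at 20 weeks. Of all genes, each taken by its brightest probe, 1.62%, 1.9%, 2.09% and 3.87% were called higher at the 4 ages. Lck, the kinase bound by CD4 and CD8, was 2.45 ± 0.60 at 12 weeks and 2.97 ± 0.75 at 20 weeks. Fyb, an adaptor protein, was 2.32 ± 0.54 and 2.86 ± 0.86, Lat, the membrane adaptor of the receptor, was 1.78 ± 0.54 and 2.25 ± 0.75, and Vav1, an exchange factor, was 1.28 ± 0.43 and 1.73 ± 0.52. These 4 were called at both ages, and under each of the 3 other scalings. At 12 weeks 99.3% of all probes called under median centring were higher.

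Among 16 other T cell surface genes 5 were called higher at 12 weeks and 9 at 20 weeks. Cd3d and Cd3g, chains of the receptor complex, were 2.58 ± 0.60 and 2.44 ± 0.58 at 12 weeks and 3.36 ± 0.64 and 3.24 ± 0.82 at 20 weeks. Thy1, a T cell glycoprotein also found on neurons, was 2.24 ± 0.27 and 2.15 ± 0.50 on its brighter probe and 0.34 ± 0.22 and 0.73 ± 0.47 on the other. Ccr7, a chemokine receptor of naive T cells and of migrating dendritic cells, was 1.46 ± 0.49 and 2.70 ± 0.49. Cd3e was not called at any age: its brighter probe gave 0.60 ± 0.24 at 4 weeks, 0.18 ± 0.13 at 12 weeks and 0.40 ± 0.33 at 20 weeks. On these probes Cd3e thus resembled Cd4 in having its highest mean at 4 weeks, while the other chains of the same complex did not. The second probes of both genes, too dim to be tested, did not show this. That of Cd3e gave -0.01 at 4 weeks, 0.16 at 12 weeks and 0.14 at 20 weeks. That of Cd4 gave -0.07 at 4 weeks and 0.17 at 12 weeks.

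Of 15 regulators of T cell lineage 4 were called higher at 12 weeks and 8 at 20 weeks. Tbx21, the regulator of type 1 helper and cytotoxic cells, was 1.26 ± 0.54 and 2.48 ± 0.48, and Lef1, a factor of naive T cells, was 1.37 ± 0.68 and 2.27 ± 0.99. Ikzf1 was 1.09 ± 0.65 and 1.63 ± 0.87, and Gata3, not called at 12 weeks, was 1.36 ± 0.65 at 20 weeks. Zbtb7b, which directs the CD4 fate, and Runx3, which directs the CD8 fate, were not called at any age. Zbtb7b was -0.27 ± 0.21 at 12 weeks and -0.05 ± 0.31 at 20 weeks, and Runx3 was 0.07 ± 0.07 and 0.13 ± 0.14 on its brighter probe and 0.21 ± 0.08 and 0.50 ± 0.24 on the other.

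Among 10 genes of ligands for the members 6 were called higher at 12 weeks and 6 at 20 weeks, on the brightest probe of each. At 4 weeks 1 was called lower, H2-K1 of MHC class I (-1.14 ± 0.49), named here after its value was seen, against 0.88% of all genes. The MHC class II genes H2-Aa, H2-Ab1 and H2-Eb1, whose products CD4 binds, were 2.47 ± 0.24, 2.96 ± 0.20 and 2.37 ± 0.15 at 12 weeks and 3.09 ± 0.36, 2.72 ± 0.36 and 2.19 ± 0.41 at 20 weeks. B2m, the light chain of MHC class I, was 2.08 ± 0.57 and 2.90 ± 0.65. The strains differ at the MHC, so a probe there can meet different alleles in the 2 channels, and its part in these values was not tested. Of 12 other MS4A family genes on the array, 8 were bright enough to be tested, and 5 were above background in no NOD mouse at 20 weeks. Among the 8 tested, 2 were called higher at 12 weeks and 7 at 20 weeks, against 2.09% and 3.87% of all genes. Ms4a6b was 1.87 ± 0.62 and 3.23 ± 0.80, Ms4a1, which encodes the B cell protein CD20, was 1.60 ± 0.83 and 2.07 ± 1.04 after being called lower at 10 days (-1.19 ± 1.13, adjusted p = 0.011), and Ms4a4c and Ms4a4d were 1.72 ± 0.63 and 1.19 ± 0.55 at 20 weeks.

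Some markers of other cells were called higher too. At 12 weeks 3 of 9 B cell genes, 3 of 10 macrophage genes, 3 of 6 dendritic cell genes, 2 of 6 NK cell genes and 3 of 10 lymph node genes were. At 20 weeks 5 of 9 B cell genes were called higher, with the list's mean between 0.15 and 1.66 over the 6 mice (Cd79b, a chain of the B cell receptor complex, 1.72 ± 1.17). So were 5 of 10 macrophage genes, with list means of 0.25 to 1.37 (Lyz2 1.93 ± 0.46, Adgre1 1.06 ± 0.73), 3 of 6 dendritic cell genes, with list means of 0.83 to 1.53 (Itgax 2.00 ± 0.59), with Ccr7 counted here and among the T cell genes, and 4 of 10 lymph node genes, with list means of 0.31 to 1.77 (Ccl19 3.87 ± 0.55, Glycam1 3.01 ± 1.35). Of 6 tested NK cell genes 2 were called, Nkg7 (2.94 ± 0.58) and Klrd1 (2.24 ± 0.77), both of which cytotoxic T cells also express. The other 4 lay under the 2-fold floor, with means of 0.36 to 0.99. Each of these was above 0 in all 6 mice, with an adjusted p of at most 2.98e-06. Ncr1, the defining NK cell gene, was not above background on any array, and Pax5 was not in any NOD mouse. Of 9 islet endocrine genes 6 were called lower at 20 weeks, against 1.23% of all genes, among them Ins1 (-1.72 ± 1.73) and Slc30a8 (-1.29 ± 0.83). The part of these cells in the members' ratios was not tested. Under median centring the B cell count at 20 weeks was 1 and the macrophage count 2.

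The genes whose ratios ran most like each member over the 24 arrays were sought among 14473 genes, by the root mean square difference after each profile was set to a mean of 0. Nearest to Cd8a were Dennd1c, Vav1, Cd300lf, Ctsw and Il10ra, at 0.22 to 0.24, and nearest to Cd8b1 were Bcl11b, Zap70, Pstpip1, Ptpn7 and Pglyrp2, at 0.17 to 0.21. Nearest to Cd2 were Il2rg, Il21r, Sh2d1a, Cd27 and Rhoh, at 0.18 to 0.23. Nearest to Cd5 were Kif21b, Fyb, Cd3g, Tcrb-J and Spn, at 0.22 to 0.30, and nearest to Ms4a4b were Ms4a6b, Spn, H60a, Cd3g and Snx20, at 0.33 to 0.49. The median gene lay 0.74 to 1.74 away from these 5 members. Cd6 had no neighbour as near: Sh3bp1, Gmfg, Apol6, Pcolce and Ctsh lay 0.57 to 0.62 away. Nearest to Cd4 were Olfr868, Xylt1, Tmem79, Tmem35b and Entpd6, at 0.06 to 0.08, with ratios that like its own hardly moved.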

How the data were processed

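Each of the 24 deposited Agilent files holds, per the file headers, spot intensity, local background and flags from Feature Extraction 10.7.3.1, and the scanner software's own log10 ratio of Cy5 over Cy3 after a dye normalization with LOWESS settings. The authors' deposited value table holds log2 ratios for 22088 probes; against the scanner ratio its slope was 0.9997 to 1 and r at least 0.9998, with column medians of -0.182 to 0.087, so it was not centred; its choice of probes is not given in the sources used here. From the intensities, limma 3.58.1 (R 4.3.3, statmod 1.5.0, data.table version 1.17.8) corrected background by normexp with an offset of 50 and normalized each array by loess without control spots (1639 of 45018). Outlier-flagged spots were set to missing (65 ratios among tested probes), and spots of a probe were averaged. Of 41174 probes, 25910 passed the scanner's background flag in either channel on 6 or more arrays and were tested. A single limma model took in the 24 arrays with 1 mean for each age, giving 4 ages against 0 and 4 contrasts, and Benjamini-Hochberg adjustment over all probes; a call needs an adjusted p under 0.05 and 2-fold. Fold values use the same log2 ratios. Channel levels for bounds were scaled by Aquantile. Probes were named by RefSeq accession (27050), current symbol (4154), older symbol (589) or the files' name (9381), from a RefSeq table on GRCm38.p6 that gave no coordinates.

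The labels describe replicates as separate mice. Equal numbers at 2 ages mark different mice, and their deviations did not go together (median correlation -0.10 over 36 array pairs; 0.00 over 180 pairs of unequal number). Named genes are all members, the 4 genes of each list with the largest ratio among those called at 20 weeks, 16 genes whatever their result (1 of them is not reported here), and the 5 nearest profiles per member. Members and lists were chosen with earlier results of these data known. The alternatives were an offset of 10, the scanner ratio, the deposited table, median centring, other filters, the brightest probe per gene, array weights, slide and replicate blocks, and each mouse left out. The fit was tested on simulated data.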

Additional observations from a re-analysis of the deposited data

Results flagged for a closer look

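In 52 groups of 6 mice, 1 for each tested member probe and age, 2 held a mouse far from the others; chance alone marks about 1 group in 20. At 4 weeks, replicate 3 read 0.62 on the Cd4 probe, with a gap to the next mouse of 0.657 of the group's range. Also at 4 weeks, replicate 5 read 0.46 on the Cd5 probe, with a gap of 0.639 of the range.

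The ratio differed between 2 ages, by the limma contrast, for the member probes described in the report. From 10 days to 4 weeks Cd6 differed by 1.94. From 4 to 12 weeks Cd8a differed by 1.52, Cd5 by 2.94, Cd6 by 1.32 and the 3 bright Ms4a4b probes by 2.17, 1.68 and 1.83. From 12 to 20 weeks Cd2 differed by 1.10 and the Ms4a4b probes by 1.74, 1.39 and 1.15. From 10 days to 20 weeks the differences were 1.78 and 1.46 for the first pair of Cd8a probes, 1.08 for Cd8b1, 1.67 for Cd2, 3.06 for Cd5, 3.69 for Cd6, and 3.34, 2.69 and 2.39 for Ms4a4b.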

How the results depend on the processing

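Counts of called member probes moved as follows. By the scanner log ratio they were 3 at 10 days, 3 at 4 weeks (1 of them lower), 13 at 12 weeks, 2 for 4 weeks minus 10 days (1 lower), 11 for 12 minus 4 weeks and 1 for 20 minus 12 weeks. In the deposited table, which holds 8 of the 13 probes, they were 3 at 4 weeks (1 of them lower) and 0 for 20 minus 12 weeks. In that last contrast limma left Cd2 at an adjusted p of 0.348. Under median centring they were 0 for 4 weeks minus 10 days and 1, lower, for 20 minus 12 weeks (Cd6, -1.14). An offset of 10 gave 10 for 12 minus 4 weeks. With 1 probe for each of the 7 genes they were 4 at 12 weeks, 6 at 20 weeks and 2 for 20 minus 12 weeks. Slide as a fixed block gave 1 for 20 minus 12 weeks. With the replicate number as a block, 3 probes were called for 20 minus 12 weeks and the count of every other comparison was as without it. With 1 mouse left out at a time, the counts were 0 at 10 days, 1 at 4 weeks, 6 to 8 at 12 weeks, 10 at 20 weeks, 1 for 4 weeks minus 10 days, 6 to 8 for 12 minus 4 weeks, 2 to 4 for 20 minus 12 weeks and 8 to 10 for 20 weeks minus 10 days. The cause of these moves was not tested. Over all tested probes limma called 841, 594, 737 and 1091 at the 4 ages; an offset of 10 gave 1518, 973, 1238 and 1766, the scanner log ratio 4292, 2796, 4638 and 4082, and median centring 3614, 894, 5162 and 2099. For the 4 differences between ages, in the order of the counts above, it called 1900, 1272, 517 and 2687 probes, and 6481, 6199, 4076 and 8308 by the scanner log ratio and 7474, 8586, 9340 and 8950 under median centring. The share of called probes that were higher was 76.7% at 20 weeks, 46.7% by the scanner log ratio and 26% under median centring; at 10 days it was 43.4%, 62.9% and 98.4%, at 4 weeks 68.7%, 53.6% and 17%, at 12 weeks 59.7%, 65.9% and 99.3%, and for 20 minus 12 weeks 83.2%, 29.1% and 0.3%. Dim signal limits Cd4, the second Cd6 probe, the third Cd8a probe and the Ms4a4b probe A_52_P306949, whose ratios the offset draws toward 0.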
